A study of Mus musculus with 12 samples.

Results

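Gene expression in the medial prefrontal cortex (mPFC) of mice with a chronic constriction injury (CCI) of the sciatic nerve was compared with that of naive mice, taking the mouse as the unit. The deposited count table was used for all 12 libraries of the series. The counts of the left and the right mPFC library that carry the same CCI number were added, which gave 4 CCI values per gene, and these were set against 4 naive values. Of 34745 genes in the table, 16179 passed the filter on low counts and were tested, and 11491 had no count in any library. All mice were wild type, and the study's design text gives them as male. CCI mice had undergone the operation, with the left side named as ipsilateral, and tissue was taken at day 28. Naive mice had no operation and were labelled with habituation to the same day, and the labels do not give the hemisphere their tissue came from. The groups therefore differ by the operation as a whole, and the effect of the nerve injury and of surgery cannot be told apart. The labels do not state outright that left and right libraries of one number are hemispheres of one animal, nor that libraries came from separate animals, so p-values measure only the spread between these samples.

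CCI is a model of neuropathic pain in which loose ligatures around the sciatic nerve leave a lasting hypersensitivity of the paw. The mPFC lies several synapses away from the injured nerve. It takes part in the affective and cognitive side of pain and sends descending output to brainstem centres that modulate nociception, and most of its cells are glutamatergic projection neurons, with GABAergic interneurons and glia among them.

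The markers of the labelled tissue were present. Slc17a7, the vesicular glutamate transporter of cortical neurons, lay between 575 and 671 FPKM (fragments per kilobase of gene, scaled to the library total) over the 12 libraries, Camk2a between 191 and 296 FPKM and Gad1, an enzyme of GABA synthesis, between 30.8 and 40.4 FPKM. Summed totals were 35.2 to 36.7 M counts (M, mega-counts) in CCI mice and 16.8 to 17.8 M in naive mice. Single libraries stood apart in markers of neighbouring tissue. The right library of CCI mouse 1 had 5.8 FPKM of the dopamine receptor gene Drd2 and 6.16 FPKM of the adenosine receptor gene Adora2a, both typical of striatal neurons, where the next highest library had 1.05 and 1.44 FPKM. The right library of CCI mouse 3 had 4.7 FPKM of Ttr, a choroid plexus gene, where its left library, the next highest, had 2.11 and the median was 0.569 FPKM. The deviations of left and right libraries of one number from their group means correlated at -0.013, -0.088, 0.063 and 0.076 over 11778 genes. With right libraries of other numbers the correlations were -0.17 to 0.17, -0.12 to 0.15, -0.083 to 0.023 and -0.15 to 0.072, so that mice 3 and 4 correlated best with their own number and mice 1 and 2 did not. Over the same genes the median SD of log2 CPM (counts scaled to a common library total) was 0.0812 among summed CCI mice, 0.098 among left, 0.131 among right and 0.0993 among naive libraries.

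No gene passed in the comparison of 4 CCI with 4 naive mice. edgeR's quasi-likelihood test with Benjamini-Hochberg adjustment called 0 of 16179 genes at an adjusted p under 0.05 (0%), and its smallest adjusted p was 0.0541, shared by Wdfy1, Rsrc1, Atf2, Pds5a and Ccdc71. The unadjusted p lay under 0.05 in 679 genes (4.2%), of which 291 were higher and 388 lower in CCI mice, where uniform p-values would give 808.95. limma voom also called 0, with 681 genes at an unadjusted p under 0.05. DESeq2 called 31 of the 15856 genes to which it gave an adjusted p (0.196%), 12 higher and 19 lower. The typical gene hardly differed: the median log2 fold change was 0.000539, 50.3% of fold changes were positive, and 21 genes lay above a doubling and 21 below a halving. The median standard error (SE) of a log2 fold change was 0.0902.

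A description that needs no model is whether the groups overlap. It sets CCI values that each join a left and a right library against naive values from single libraries. The median SD of log2 CPM was 0.0812 among summed CCI mice and 0.0993 among naive libraries. In 197 genes (1.22%) all 4 CCI mice lay above all 4 naive mice, and in 242 (1.5%) all 4 lay below. Asking the same of each hemisphere left 22 genes (0.136%) with all 8 CCI libraries above the naive range and 46 (0.284%) with all 8 below it. Samples in random order would also separate a share of the genes, and that share was not computed here. These counts, and the separation of any single gene given below, are therefore descriptions and do not show that a gene differs. Below, the 30 genes of smallest unadjusted p are described, with predicted and mitochondrially encoded genes left out. Of these 30, 12 had a higher and 18 a lower level in CCI mice. Among the lower, Lmbr1 (log2 fold change -0.33, SE 0.06) and Tunar (-0.46, SE 0.11) are given here only. Since p chose the 30, the share of them that is separated carries no support of its own. In 28 of the 30 the mice did not overlap, and the exceptions were Brinp3 and Klhdc10. DESeq2 called 24 of them.

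**Figure D1:**
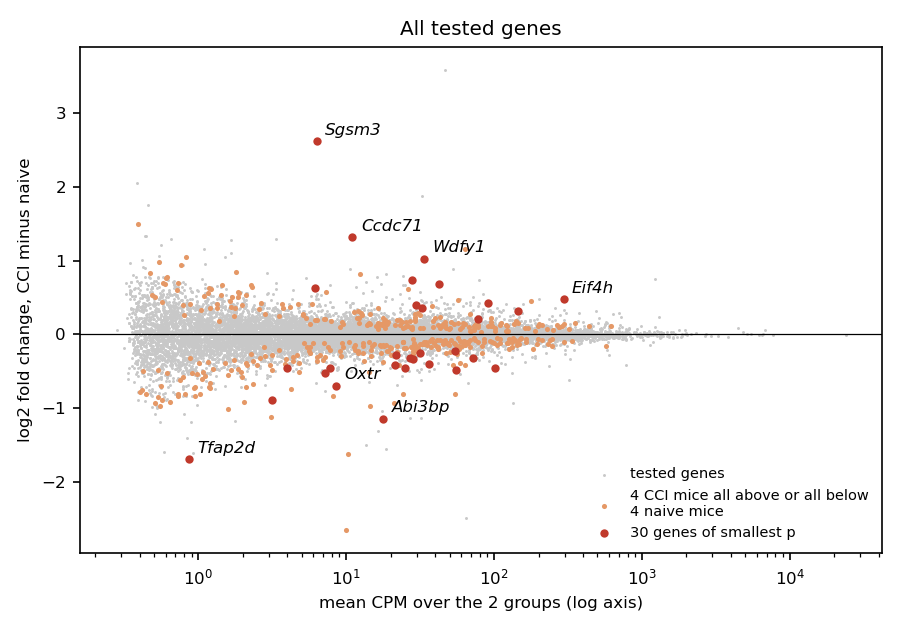
Each point is 1 of 16179 tested genes, by its mean CPM over both groups (log axis) and its log2 fold change, CCI minus naive; orange points are genes whose 4 CCI mice all lie above or all below the 4 naive mice, and red points are the 30 genes of smallest p. Most genes lie close to 0 and the labelled ones are spread over the range of levels.

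The endosomal adaptor gene Wdfy1 (ENSMUSG00000073643, chromosome 1, 79702262 to 79776143, GRCm38) had the smallest p of all. Its product binds a phosphoinositide of early endosomes through a FYVE domain and links endosomal Toll-like receptors to the adaptor TRIF. Its level was 53.5, 37.3, 38.4 and 50.1 CPM in CCI mice 1 to 4 and 22.6, 22.5, 19.9 and 22.8 CPM in naive mice 1 to 4, a log2 fold change of 1.03 (SE 0.12; 95% interval 0.76 to 1.30). Every CCI mouse was above every naive mouse. The hemispheres of a mouse lay within 1.12-fold of each other, with 52.0 and 54.9 CPM in the left and right of mouse 1, 39.1 and 34.8 in mouse 2, 38.4 and 38.4 in mouse 3, and 50.2 and 49.7 in mouse 4. Wdfy1 overlaps the ribosomal protein gene Mrpl44 on the other strand, and the strand setting of the counting is not given in the sources used here. Mrpl44 had 18.2 ± 0.62 CPM in CCI and 18.7 ± 0.73 CPM in naive mice (SD, n = 4 each), with a log2 fold change of -0.04 (SE 0.06).

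Tbk1, the kinase downstream of TRIF that activates interferon regulatory factors, was the second member of this pathway to separate. It stood at 52.4, 55.4, 55.1 and 53.7 CPM in CCI and 46.1, 49.0, 49.1 and 48.0 CPM in naive mice (log2 fold change 0.17, SE 0.05), and all 8 CCI libraries were above the naive range. It did not pass, and the step is small beside that of Wdfy1. Of 17 tested genes of the endosomal Toll-like receptor pathway and the Wdfy family, 12 had a positive fold change and 2 an unadjusted p under 0.05, and the median was 0.0797. The relatives Wdfy2 (0.19, SE 0.13), Wdfy3 (0.04, SE 0.05) and Wdfy4 (0.22, SE 0.15) and the receptor genes Tlr3 (-0.09, SE 0.09), Tlr7 (-0.09, SE 0.36) and Tlr9 (0.23, SE 0.18) had log2 fold changes within 1.5 times their SE. Downstream of the pathway, 18 of 27 interferon response and antigen presentation genes were negative (median -0.0373), among them the peptide transporter gene Tap1 (-0.42, SE 0.18), whose mice did not overlap.

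Genes of transcription and chromatin formed the next group. Atf2 (ENSMUSG00000027104, chromosome 2, 73816509 to 73892639) encodes a leucine zipper factor that the stress kinases JNK and p38 phosphorylate and that binds the cyclic AMP response element. It had 76.9, 94.3, 88.2 and 82.2 CPM in CCI and 120.6, 110.3, 119.7 and 117.1 CPM in naive mice (log2 fold change -0.45, SE 0.06). The mice were separated, but the hemispheres were not: the right libraries of mice 2 and 3 held 127.4 and 108.5 CPM against 68.5 and 67.4 in their left libraries. Pds5a (ENSMUSG00000029202, chromosome 5, 65605721 to 65698273), whose product regulates the release of cohesin from chromatin, had 44.0, 43.8, 43.8 and 52.9 CPM in CCI and 65.1, 66.0, 63.8 and 61.9 CPM in naive mice (-0.48, SE 0.07). All but 1 of the 8 CCI libraries lay between 41.2 and 45.0 CPM, and the right library of mouse 4 held 64.2 CPM, inside the naive range.

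The partners of both genes gave no comparable values. Of the 21 tested genes of the ATF and CREB factors, their coactivators and kinases, Atf2 was the 1 with an unadjusted p under 0.05, and the list median was -0.00285, with Creb1 at 0.03 (SE 0.06), Atf7 at 0.04 (SE 0.06) and Mapk8, which encodes JNK1, at 0.07 (SE 0.05). Of 13 tested cohesin genes, Pds5a was likewise the 1 with an unadjusted p under 0.05. Its paralogue Pds5b stood at 0.02 (SE 0.06), and the ring subunits Smc1a, Smc3 and Rad21 at -0.03, -0.00 and -0.01.

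Other transcription factor genes among the 30 were Tfap2d, Zfp189 and Zmym5. Tfap2d (chromosome 1, 19103022 to 19166346), an AP-2 family gene of low count, had 0.224, 0.328, 0.542 and 0.534 CPM in CCI and 1.67, 1.18, 1.25 and 1.17 CPM in naive mice (-1.69, SE 0.29), with all 8 CCI libraries below the naive range. Zfp189, a zinc finger repressor gene studied in the prefrontal cortex for resilience to stress, had 5.06, 6.56, 6.05 and 5.76 CPM in CCI and 9.09, 7.73, 7.77 and 9.09 CPM in naive mice (-0.52, SE 0.11), again with all 8 libraries below. The zinc finger gene Zmym5 had 37.9, 31.5, 34.2 and 31.5 CPM in CCI against 25.2 to 25.9 CPM in naive mice (0.40, SE 0.07), and here 1 CCI library lay below the naive range, at 24.1 CPM.

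Because Atf2 binds the cyclic AMP response element, the promoters of the 30 genes were read for that motif. RefSeq promoters (GRCm38.p6, 250 bases before to 50 after a start) were found by gene symbol for 23 of the 30 genes, 36 promoters in all. The promoter found for Sgsm3, at chr15:80977515-80977814, lies outside the Sgsm3 model among the 30, which spans 81002628 to 81011736. It holds neither form of the motif but is counted in the 36. The full element TGACGTCA, searched on both strands, stood in 0 of these 36, in 2.87% of the promoters of tested genes and in 1.79% of all 32851 promoters. Its short form TGACG, also searched on both strands and part of the full element, stood in 10 of 36 (27.78%), in 9 genes, against 29.09% of the promoters of tested genes and 20.81% of all, so the share was near the background. The promoters of Atf2 itself, of Pds5a and of Rsrc1 are printed, as 3 of the 5 genes of smallest adjusted p, 5′ to 3′ on the strand of the gene, with the short element in capitals where it occurs. They lie at chr2:73892590-73892889 (minus strand), chr5:65698187-65698486 (minus strand) and chr3:66985412-66985711 (plus strand).
Atf2: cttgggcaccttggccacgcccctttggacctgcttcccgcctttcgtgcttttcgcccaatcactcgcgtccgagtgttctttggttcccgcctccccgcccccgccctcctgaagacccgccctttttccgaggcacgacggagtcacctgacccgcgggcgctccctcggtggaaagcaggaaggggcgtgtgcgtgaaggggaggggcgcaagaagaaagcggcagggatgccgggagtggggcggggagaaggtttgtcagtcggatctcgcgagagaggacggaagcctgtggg
Pds5a: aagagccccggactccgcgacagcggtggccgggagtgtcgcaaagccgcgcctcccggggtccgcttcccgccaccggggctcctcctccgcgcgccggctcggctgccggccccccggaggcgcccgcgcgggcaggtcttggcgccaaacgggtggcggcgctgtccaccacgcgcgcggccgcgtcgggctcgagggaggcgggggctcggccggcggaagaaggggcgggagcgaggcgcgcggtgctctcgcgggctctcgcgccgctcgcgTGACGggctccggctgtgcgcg
Rsrc1: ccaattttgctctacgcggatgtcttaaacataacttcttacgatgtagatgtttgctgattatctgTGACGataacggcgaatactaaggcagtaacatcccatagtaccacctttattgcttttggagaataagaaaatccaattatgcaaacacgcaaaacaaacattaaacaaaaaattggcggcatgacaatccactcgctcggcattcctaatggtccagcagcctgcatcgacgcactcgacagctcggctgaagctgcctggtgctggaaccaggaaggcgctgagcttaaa
The Atf2 window holds no short element, and those of Pds5a and Rsrc1 as printed hold 1 each. A second Rsrc1 promoter, chr3:66985717-66986016, not printed, holds none. A match is a description of the letters and says nothing of binding.

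Rsrc1, Eif4h, Ube2e2, Klhdc10 and Klhl14 belong to RNA processing, translation and ubiquitin transfer. Rsrc1 (ENSMUSG00000034544, chromosome 3, 66981390 to 67358396), which encodes an arginine and serine rich protein linked to splicing, had 28.8, 39.8, 31.6 and 38.8 CPM in CCI and 21.4, 20.4, 21.4 and 20.5 CPM in naive mice (0.73, SE 0.10). Its left libraries held 37.4 to 43.4 CPM, while the right libraries of mice 1 and 3 held 20.6 and 19.97 CPM, at the naive level. Eif4h (ENSMUSG00000040731, chromosome 5, 134619721 to 134639490), whose product stimulates the helicase eIF4A during translation initiation, had 405.5, 333.8, 326.3 and 310.9 CPM in CCI and 243.1 to 251.7 CPM in naive mice (0.48, SE 0.07). In CCI mice 5 libraries were at 371.2 CPM or more and the other 3 between 241.2 and 247.4 CPM, so a CCI library was either well above or at the naive level. Widely unlike levels among libraries were not confined to CCI mice in every gene. Slc1a2, an astrocyte marker, had 316.5, 509.5, 2499 and 338.3 CPM in naive mice 1 to 4. Its CCI libraries ran from 295.5 to 2786 CPM. Of the 14 tested genes of the eIF4 group Eif4h was the 1 with an unadjusted p under 0.05. The helicase genes Eif4a1 (-0.04, SE 0.08) and Eif4a2 (-0.21, SE 0.16) did not accompany it.

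Ube2e2, a ubiquitin-conjugating enzyme gene, had 38.5, 35.9, 37.3 and 34.1 CPM in CCI and 27.0 to 29.7 CPM in naive mice (0.35, SE 0.06), yet single CCI libraries ran from 25.7 to 46.3 CPM. Klhdc10, which encodes a substrate adaptor of a ubiquitin ligase, had 109.0, 117.3, 104.5 and 89.2 CPM in CCI and 74.6, 72.7, 74.2 and 91.7 CPM in naive mice (0.42, SE 0.10), and mice overlapped through naive 4. Klhl14, another Kelch family gene, was lower, at 2.07, 2.32, 2.43 and 2.08 CPM in CCI and 5.07, 2.60, 3.76 and 5.04 CPM in naive mice (-0.89, SE 0.19), with all 8 CCI libraries below the naive range. Its antisense neighbour 4930426D05Rik had a log2 fold change of -1.17 (SE 0.41), and without a known strand setting their reads cannot be told apart.

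The receptor, adhesion and matrix genes among the 30 had lower levels in CCI mice, with the exception of Vwc2. Oxtr (ENSMUSG00000049112, chromosome 6, 112473683 to 112489943), the oxytocin receptor gene, had 5.82, 5.001, 7.45 and 7.67 CPM in CCI and 10.4, 10.2, 9.80 and 11.6 CPM in naive mice (-0.69, SE 0.14; adjusted p = 0.425 in edgeR and 0.00371 in DESeq2). The mice did not overlap, and of the 8 CCI libraries the right library of mouse 4, at 10.6 CPM, lay inside the naive range. In bulk tissue, fewer cells that express a gene and less RNA per cell cannot be told apart. Abi3bp (ENSMUSG00000035258, chromosome 16, 56477846 to 56690128), an extracellular matrix gene, had 8.70, 11.1, 11.6 and 13.1 CPM in CCI and 26.9, 16.7, 23.4 and 31.1 CPM in naive mice (-1.14, SE 0.20), and all 8 CCI libraries were below the naive range. Lmo7 (ENSMUSG00000033060, chromosome 14, 101729957 to 101934710), a LIM domain gene of cell junctions and the nuclear envelope, had 63.4, 62.8, 64.8 and 66.1 CPM in CCI and 84.5, 73.0, 84.8 and 79.3 CPM in naive mice (-0.32, SE 0.05), also with all 8 libraries below.

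Other membrane and secreted genes among the 30 were Nrp2, Clmp, Pcsk5, Thsd7a, Brinp3, Tmem35 and Vwc2. Nrp2, a co-receptor for class 3 semaphorins, had 31.4, 29.5, 31.4 and 33.1 CPM in CCI and 47.8, 37.5, 43.4 and 36.6 CPM in naive mice (-0.40, SE 0.08), but its CCI libraries ran from 20.6 to 45.2 CPM. The adhesion gene Clmp (-0.26, SE 0.05), the proprotein convertase gene Pcsk5 (-0.32, SE 0.07), the thrombospondin-domain gene Thsd7a (-0.41, SE 0.09) and Brinp3 (-0.45, SE 0.10) were lower, each with at least 1 CCI library in the naive range. Tmem35, which encodes a chaperone of nicotinic receptors, stood at 48.2 to 52.0 CPM in CCI and 54.7 to 60.6 CPM in naive mice (-0.22, SE 0.05). Vwc2, a secreted antagonist of bone morphogenetic proteins, was higher, at 9.06, 7.71, 6.74 and 6.52 CPM against 4.57, 5.07, 5.197 and 4.63 CPM (0.63, SE 0.12), with 7 CCI libraries above the naive range and 1 inside.

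Rps6ka3, Ralgapb and Rgs8 act in intracellular signalling. Rps6ka3, which encodes the kinase RSK2 downstream of ERK, had 48.9, 53.0, 62.0 and 45.9 CPM in CCI and 25.9, 38.2, 36.4 and 29.96 CPM in naive mice (0.69, SE 0.14). Its hemispheres differed by up to 2.44-fold within a mouse, and 3 of 8 CCI libraries were in the naive range. Ralgapb, a subunit gene of the GTPase-activating complex for Ral, had 152.0 to 175.9 CPM in CCI and 114.4 to 143.8 CPM in naive mice (0.32, SE 0.07). Rgs8, a regulator of G protein signalling, had 77.3 to 87.0 CPM in CCI and 69.5 to 74.2 CPM in naive mice (0.21, SE 0.05).

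Of the 30 genes, 20 had a difference of more than 1.5-fold between the hemispheres of at least 1 CCI mouse, beside 1680 of 11778 genes (14.3%) at a mean of 5 CPM or more. The 20 include Tfap2d, Klhl14 and Aaed1, which lie below that level, so these shares are not on the same basis. Of the 30 genes, 20 had at least 1 CCI library inside the naive range. The 8 genes whose CCI libraries were all outside it on one side were Wdfy1, above, and Lmo7, Tfap2d, Abi3bp, Zfp189, Klhl14, Aaed1 and Xndc1, below. Aaed1, a peroxiredoxin-like gene, had 3.23 to 3.54 CPM in CCI and 4.48 to 4.68 CPM in naive mice (-0.45, SE 0.10), and Xndc1 had 18.1 to 20.9 and 22.3 to 24.9 CPM (-0.28, SE 0.07). Over all tested genes, 22 were above and 46 below by this measure, so most of them are outside the 30. Ndst4, named here as a fixed gene, is among those below and outside the 30. It encodes a heparan sulfate modifying enzyme and had 1.20, 1.58, 1.74 and 6.38 CPM in CCI and 22.4, 12.4, 17.1 and 16.8 CPM in naive mice (-2.66, SE 0.56; edgeR adjusted p = 0.841, DESeq2 adjusted p = 0.0038). The higher value of CCI mouse 4 came from its right library, at 11.3 CPM against 1.31 CPM in the left. The paralogues Ndst1 (0.05), Ndst2 (0.12) and Ndst3 (-0.06) had log2 fold changes under 2 SE.

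**Figure D2:**
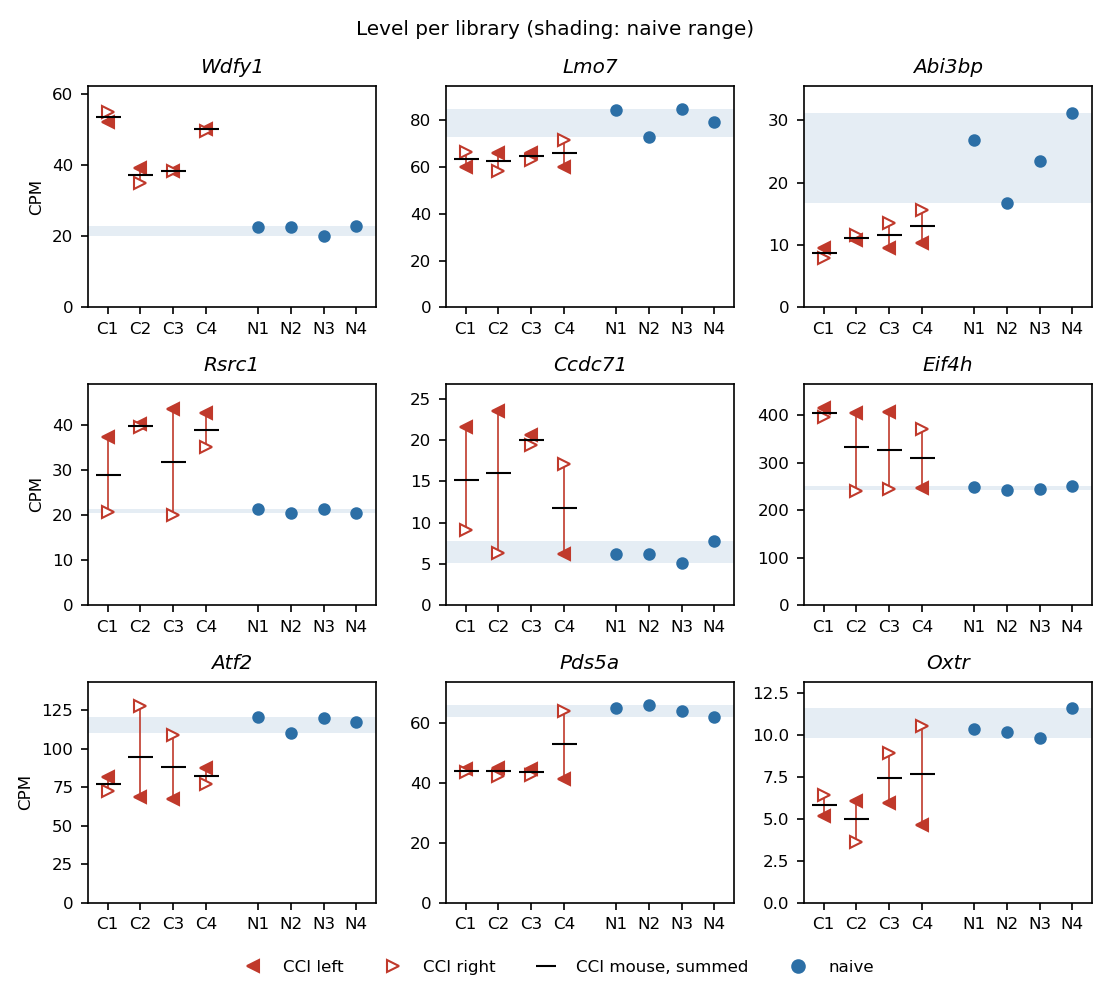
CPM of 9 genes in each library; filled left-pointing triangles are left and open right-pointing triangles right CCI libraries, joined per mouse (C1 to C4), horizontal bars are summed CCI mice, circles are naive mice (N1 to N4) and shading is the naive range. In the top row (Wdfy1, Lmo7, Abi3bp) all 8 CCI libraries lie outside the shading, while in the other rows single hemispheres reach or cross it, as for the left library of mouse 4 in Eif4h and the right library of mouse 2 in Atf2.

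**Figure D3:**
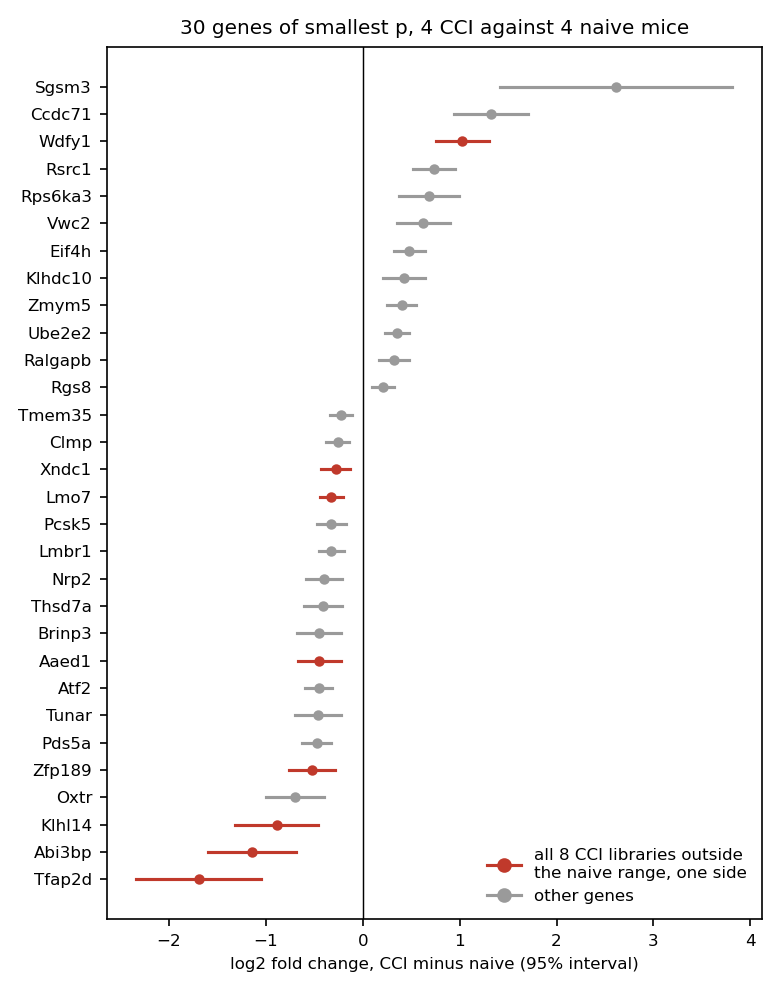
Log2 fold change, CCI minus naive, with its 95% interval for the 30 genes of smallest p, from 4 CCI and 4 naive mice; red marks the 8 genes with all 8 CCI libraries on one side of the naive range. Fold changes run from 2.62 for the second Sgsm3 model to -1.69 for Tfap2d, and none of the genes passed after adjustment.

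For some genes the counts of overlapping models bear on the value. The Sgsm3 entry among the 30 (ENSMUSG00000103565, chromosome 15, 81002628 to 81011736) had 12.8, 7.21, 7.42 and 16.4 CPM in CCI and 3.62, 1.062, 0.836 and 1.52 CPM in naive mice, a log2 fold change of 2.62 (SE 0.50). It overlaps a second model of the same name (ENSMUSG00000042303), which held 87.22% of the joint counts and had a log2 fold change of -0.21 (SE 0.07). Added together the 2 models had 62.7 ± 1.2 CPM in CCI and 61.6 ± 1.7 CPM in naive mice (SD, n = 4 each), a log2 ratio of 0.0244, so the sum over the locus was nearly level. Ccdc71 (ENSMUSG00000049305, chromosome 9, 108460527 to 108465938), a coiled-coil gene, had 15.2, 15.99, 20.1 and 11.8 CPM in CCI and 6.13, 6.19, 5.14 and 7.74 CPM in naive mice (1.32, SE 0.17), with CCI libraries from 6.20 to 23.5 CPM. Its antisense neighbour Klhdc8b was at 20.2 ± 5.4 and 19.6 ± 3.6 CPM (0.05, SE 0.21), and the joint log2 ratio was 0.474. In all, 13 of the 30 genes overlapped another gene with counts, and in 7 that gene held 5% or more of the joint counts.

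The 33 gene lists chosen for cortex and pain held 622 tested genes, and 0 passed in edgeR. Their share at an unadjusted p under 0.05 was 41 of 622 (6.59%), beside 4.2% of all genes, and 21 (3.38%) had separated mice, beside 2.71% of all genes. Several of these lists were built around genes already known to differ here, such as Wdfy1, Atf2, Pds5a, Eif4h and Ndst4, so these shares are a description.

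**Figure D4:**
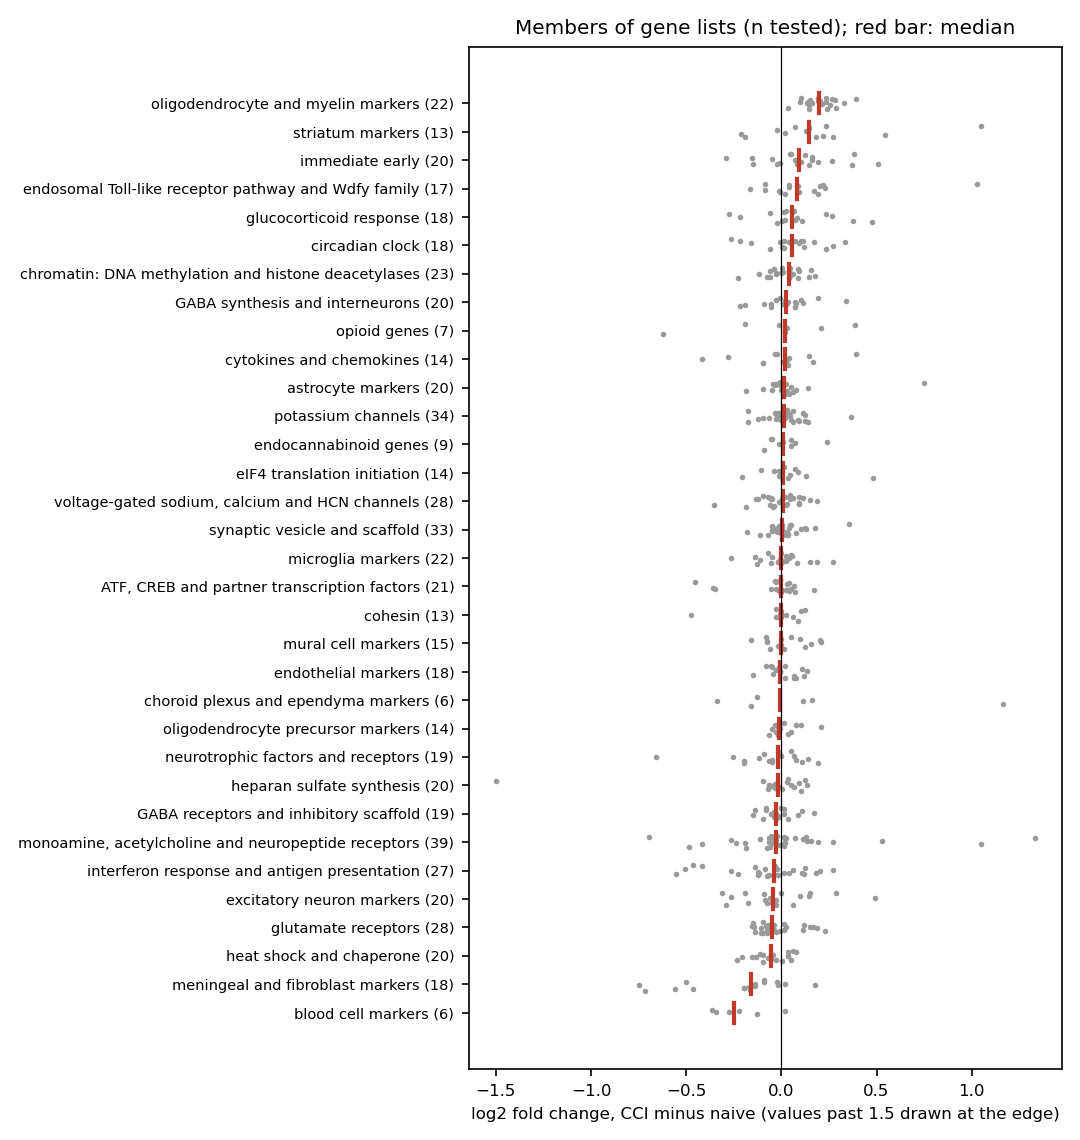
Log2 fold change, CCI minus naive, of each tested member (grey) and the median (red bar) of 33 gene lists, with the number tested in brackets; values past 1.5 are drawn at the edge. Medians run from 0.199 for oligodendrocyte and myelin markers to -0.25 for blood cell markers, and most lists centre near 0.

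Neuronal identity and transmitter lists had medians near 0. In the excitatory neuron marker list 14 of 20 genes were negative (median -0.0419), with log2 fold changes from -0.314 to 0.492. Its 1 member at an unadjusted p under 0.05, Neurod6, was positive (0.15, SE 0.06). Slc17a7 stood at -0.03 (SE 0.03) and Gad1 at 0.02 (SE 0.04), with Pvalb, Sst and Vip, which mark interneuron classes, at 0.11 (SE 0.08), 0.08 (SE 0.06) and -0.05 (SE 0.07). In the interneuron list 13 of 20 genes were positive, and Npy, the neuropeptide Y gene, had 52.7 to 59.2 CPM in CCI and 45.0 to 56.2 CPM in naive mice (0.19, SE 0.07). In the GABA receptor and inhibitory scaffold list 13 of 19 were negative (median -0.0264), and Nlgn2, the neuroligin of inhibitory synapses, had separated mice at 279.7 to 293.8 CPM in CCI and 297.1 to 323.7 CPM in naive mice (-0.10, SE 0.04). In the glutamate receptor list 19 of 28 were negative (median -0.0504), while the 3 members at an unadjusted p under 0.05 were positive: the obligatory NMDA receptor subunit gene Grin1 (0.15, SE 0.06), the AMPA receptor auxiliary subunit gene Cacng2 (0.12, SE 0.05) and the kainate receptor gene Grik5 (0.11, SE 0.05). Grin1 overlapped between groups, and its highest value came from the left library of mouse 4 (737.8 CPM, against 436.8 CPM in the right).

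Ion channel lists were centred on 0. Sodium, calcium and HCN channel genes had a median of 0.00702 (15 of 28 positive) and potassium channel genes one of 0.0142 (23 of 34 positive). Members at an unadjusted p under 0.05 were the calcium channel subunit gene Cacna2d3 (-0.13, SE 0.05), the two-pore channel gene Kcnk2 (-0.17, SE 0.07) and the inward rectifier gene Kcnj4 (-0.12, SE 0.05). The pacemaker channel gene Hcn2 stood at 0.00 (SE 0.05).

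Among modulatory receptors, opioid and monoamine genes gave single members rather than a shift of the list. Oprl1, the nociceptin receptor gene, had 44.6, 47.3, 38.0 and 43.3 CPM in CCI and 26.6, 33.9, 36.9 and 35.2 CPM in naive mice (0.39, SE 0.10), and the mice did not overlap. Its ligand gene Pnoc stood at -0.19 (SE 0.12). Oprm1, the µ-opioid receptor gene, was at 1.02 CPM or less in every mouse (-0.62, SE 0.47), and the mice overlapped, at 0.169 to 0.571 CPM in CCI and 0.167 to 1.02 CPM in naive mice. Htr2c, a serotonin receptor gene, had 19.2, 19.3, 17.7 and 22.1 CPM in CCI and 32.8, 22.7, 25.9 and 23.0 CPM in naive mice (-0.42, SE 0.12), separated by mouse but not by library. Htr1a (-0.19, SE 0.08) was also lower at an unadjusted p under 0.05, and Htr1d (1.33, SE 0.50) was higher at under 1 CPM in every mouse. Of the 39 tested receptors of this list 16 were positive.

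Trophic factor receptors included several of the GDNF family. Gfra1 had 38.6, 38.3, 39.5 and 40.1 CPM in CCI and 47.8, 46.2, 43.4 and 41.6 CPM in naive mice (-0.20, SE 0.05), and Gfra4 (-0.25, SE 0.10) and the p75 neurotrophin receptor gene Ngfr (-0.66, SE 0.23) were lower, while Gfra2 (0.11, SE 0.05) was higher. Bdnf stood at -0.05 (SE 0.09). Of the 19 genes of this list 13 were negative (median -0.0173).

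Activity-regulated genes varied widely among mice of both groups. Fos had 19.5, 35.6, 45.2 and 70.0 CPM in CCI and 8.31, 27.9, 37.9 and 80.1 CPM in naive mice (0.14, SE 0.70), and Arc had 71.7, 142.4, 213.9 and 287.8 CPM against 47.7, 120.7, 172.5 and 379.2 CPM (-0.01, SE 0.71). Naive mice thus held both the lowest and the highest value of each gene, and mice of the same number took the same rank in both groups. Of 20 immediate early genes 14 were positive, with a median of 0.0927, and none had an unadjusted p under 0.05.

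Genes under hormonal and daily control showed small differences. Zbtb16, a glucocorticoid-induced zinc finger gene, had 51.8, 44.7, 44.1 and 44.4 CPM in CCI and 36.2, 38.6, 40.7 and 42.0 CPM in naive mice (0.23, SE 0.07), with all 8 CCI libraries above the naive range. Tsc22d3, which encodes the glucocorticoid-induced leucine zipper, stood at 0.27 (SE 0.08), while Fkbp5, another glucocorticoid target, stood at 0.00 (SE 0.06). In all 14 of 18 glucocorticoid response genes were positive (median 0.0566). Among clock genes Dbp (0.27, SE 0.09) and Per3 (0.17, SE 0.06) were positive and Arntl (-0.16, SE 0.07), whose product drives both, was negative, each at an unadjusted p under 0.05. The labels give no time of day, so its part in these values was not tested.

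Glial and immune lists differed little between the groups. The myelin list had the largest median of them, and its score varied most among CCI mice (SD 0.41, beside 0.174 in naive mice). All 22 oligodendrocyte and myelin markers were positive (median 0.199), but the mean log2 level of the list, centred per gene, was 0.485 and 0.37 in CCI mice 1 and 2 and -0.165 and -0.363 in mice 3 and 4, so that CCI mice lay both above and below all naive mice (-0.309 to 0.0951). Mbp, a main myelin protein gene, had 761.5, 673.0, 500.7 and 433.8 CPM in CCI and 467.6, 580.6, 559.7 and 536.7 CPM in naive mice (0.14, SE 0.19). The list median was 0.072 without CCI mouse 1 and 0.0931 without CCI mouse 2. Microglia markers had a median of -0.0017 (10 of 22 positive), with Aif1 at 0.04 (SE 0.17), and astrocyte markers one of 0.0144 (11 of 20 positive), with Gfap at -0.00 (SE 0.21) and the water channel gene Aqp4 at -0.18 (SE 0.06). Of 14 tested cytokine and chemokine genes 1 had an unadjusted p under 0.05, Cx3cl1, the neuronal ligand of the microglial fractalkine receptor, with 838.4, 621.3, 625.1 and 600.6 CPM in CCI and 832.6, 854.8, 902.5 and 1000.0 CPM in naive mice (-0.42, SE 0.11). Its CCI libraries fell into 5 at 764.8 CPM or more and 3 at 429.0 CPM or less.

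Markers of tissue next to the mPFC differed between single mice and between single libraries. Meningeal and fibroblast markers were negative in 16 of 18 (median -0.162), among them Fmod (-0.75, SE 0.21), Ogn (-0.72, SE 0.28) and Slc6a13 (-0.50, SE 0.18). The list score was -0.195 to 0.126 in summed CCI mice and -0.0685 to 0.366 in naive mice. Within CCI mice the hemispheres lay far apart. Left and right scores were -0.505 and 0.324 in mouse 1, 0.182 and -0.659 in mouse 2. They were -0.51 and 0.196 in mouse 3, and -0.421 and 0.631 in mouse 4. Striatum markers were positive in 10 of 13 (median 0.146), with a score of 0.601 in CCI mouse 1, -0.16 to -0.121 in the other CCI mice and -0.0812 to -0.0252 in naive mice. In mouse 1 the score was 1.06 in the right library. Of 6 tested choroid plexus and ependyma markers 3 were positive, with a score of 0.345 in CCI mouse 3, -0.123 to -0.0209 in the other CCI mice and -0.0967 to 0.0761 in naive mice, and Ttr had a log2 fold change of 1.16 (SE 0.89). Without mouse 1 the median of the striatum list was -0.0746. With mouse 1 represented by its left library only, edgeR called 2 genes, Wdfy1 and Rsrc1. The part of the meningeal and choroid plexus markers in other values was not tested.

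**Figure D5:**
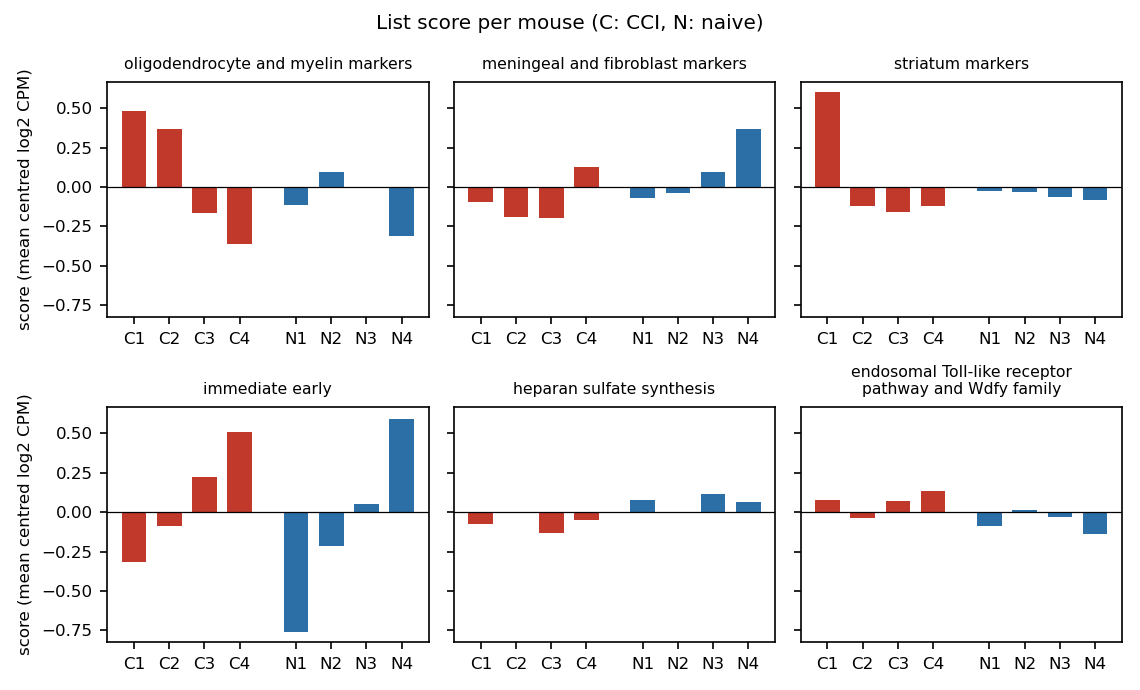
Score per mouse (log2 CPM of each gene less its own mean, averaged over the list) for 6 lists in CCI mice (C1 to C4, red) and naive mice (N1 to N4, blue), all panels on one scale. Myelin scores of CCI mice lie both above and below 0, the striatum score is high in CCI mouse 1 alone, and immediate early scores spread widely in both groups.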

How the data were processed

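The authors deposited raw counts and FPKM (scaled by gene length) for all libraries in 1 table, per the file headers. Libraries were made from total RNA with an mRNA kit, per the labels' protocols. HISAT2 2.0.4 and the builds GRCm38 and mm10 appear, with no role stated, in the submitters' processing notes; annotation release, counting program and strand setting were not given in the sources used here. Left and right counts of one CCI number were summed. Deposited counts were tested with edgeR 4.0.16 (TMM, filterByExpr, robust quasi-likelihood; R 4.3.3), two-sided, with Benjamini-Hochberg adjustment over all 16179 tested genes and a threshold of 0.05. DESeq2 1.42.0 and limma 3.58.1 (voom) were alternatives. CPM used TMM factors, for summed mice and for single libraries separately. FPKM served for the levels of tissue marker genes over the 12 libraries. Scores added 0.5 CPM before the log. The code was tested on simulated data. The genes named were the 30 of smallest unadjusted p (predicted and mitochondrial genes left out), up to 4 per list by p, their family members, and 17 fixed genes. Members and lists were chosen with earlier results of these data known. Some genes that this rule names are left out of the text.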

Additional observations from a re-analysis of the deposited data

Results flagged for a closer look

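Each gene of the 30, each list score and the total count was checked in both groups of 4 for a mouse far from the others, by Dixon's criterion (the gap to the nearest mouse over the range). Of 128 values checked 11 met it, and chance alone gives about 1 in 20. Among genes, Wdfy1 was lower in naive mouse 3 (19.89 CPM) than in the others (22.53 to 22.8), Pds5a higher in CCI mouse 4 (52.94 CPM, others 43.76 to 44.01), Tfap2d higher in naive mouse 1 (1.672 CPM, others 1.172 to 1.254), Thsd7a higher in naive mouse 3 (27.96 CPM, others 22.83 to 23.57) and Klhdc10 higher in naive mouse 4 (91.68 CPM, others 72.74 to 74.57). Among list scores, synaptic vesicle and scaffold genes stood at -0.0811 in naive mouse 1 (others 0.00864 to 0.0222) and cytokines and chemokines at -0.0983 in CCI mouse 2 (others 0.0136 to 0.0346). In CCI mouse 1 the striatum marker score was 0.601 (others -0.16 to -0.121) and that of oligodendrocyte precursors 0.0784 (others -0.024 to -0.0106). In CCI mouse 3 the eIF4 score was -0.0139 (others 0.0294 to 0.0371) and the heat shock score -0.0982 (others -0.00235 to 0.00125).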

How the results depend on the processing

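The count of 0 genes in edgeR became 4 with library size scaling (2 higher, 2 lower), 5 without a filter (3 and 2), 31 with DESeq2 (12 and 19), 3 with the summed counts thinned to naive depth (2 and 1), 7 with left libraries alone (2 and 5) and 1 with right libraries alone (0 and 1); other scalings, filters and tools among the 20 alternatives gave 0. An alternative chosen after seeing the data, mouse CCI 1 by its left library only, gave 2 (both higher). Leaving out 1 mouse gave 0 to 6 genes, 0 to 3 higher and 0 to 5 lower: 6 without CCI 1, CCI 4 or naive 2, 3 without CCI 2, 1 without naive 3 and 0 without CCI 3, naive 1 or naive 4. The 439 genes with separated mice became 740 with left libraries alone and 334 with right libraries alone. They became 673 to 1090 without 1 mouse, where fewer samples make separation easier. DESeq2, voom, the 12-library fit, the replicate block and the fit without robust estimation give no such count of their own. For the 30 genes, 629 gene and setting pairs were compared: 573 stayed on the same side, 56 passed the threshold and 0 reversed. Wdfy1 passed in 9 of 21 settings, with log2 fold changes from 0.93 to 1.11.

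With a replicate block 1 gene passed, Wdfy1. The numbers were not taken as pairs of CCI and naive mice, as the correlations of deviations over 11778 genes were -0.024, -0.15, -0.12 and 0.16, although immediate early scores ranked alike by number in both groups.

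Ptgds (-0.17), Fos and Mbp (0.14 each) and genes of smaller main values reversed. Right libraries alone gave Gad1 -0.0834, Gfap 0.42, Arc 0.0274, Vip 0.06996, Pvalb -0.15 and Ptgds 0.062, and left libraries alone Slc17a7 0.0195 and Fkbp5 -0.0304. Fkbp5 was also -0.00375 with library size scaling, -0.00074 with voom, -0.000195 in the 12-library fit and -0.0132 with mouse CCI 1 by its left library. Gfap was 0.00167 without a filter and 0.00388 thinned. Arc was 0.19 with voom, 0.18 in the 12-library fit, 0.18 with the replicate block and 0.0074 with mouse CCI 1 by its left library. Leaving out 1 mouse gave ranges of -0.0857 to 0.17 (Aif1), -0.34 to 0.66 (Arc), -0.12 to 0.0146 (Bdnf), -0.032 to 0.04004 (Fkbp5), -0.21 to 0.79 (Fos), -0.23 to 0.12 (Gfap) and -0.000692 to 0.27 (Mbp). Of 693 list medians compared, 40 moved beyond the spread between mice and 112 had another sign. The cause of these changes was not tested.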

Other observations

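DESeq2 called 7 genes outside the 30 described above, and they were singled out here after their values were seen. Ndst4 is given above and 4930447C04Rik is a predicted gene. Tmem260, a transmembrane protein gene, had 10.1, 10.5, 8.91 and 9.47 CPM in CCI and 24.0, 19.2, 11.2 and 22.04 CPM in naive mice (log2 fold change -0.97; adjusted p = 0.713 in edgeR and 0.000571 in DESeq2), and all 8 CCI libraries were below the naive range. Ankrd34b, an ankyrin repeat gene, had 8.44, 17.3, 16.6 and 15.3 CPM in CCI and 28.9, 24.5, 30.5 and 26.1 CPM in naive mice (-0.93), again with all 8 libraries below. Ndnf, which encodes a secreted neurotrophic protein and marks layer 1 interneurons, had 14.9, 13.6, 16.4 and 25.7 CPM in CCI and 34.3, 27.3, 34.7 and 27.8 CPM in naive mice (-0.81).

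In the last 2 genes of this group single CCI libraries took one of 2 levels. Luc7l, a gene of the U1 splicing complex, had 130.3 to 138 CPM in the right libraries of CCI mice 2, 3 and 4 and the left library of mouse 3, and 37.59 to 46.85 CPM in the other 4 CCI libraries, beside 35.7 to 43.5 CPM in naive mice. Abl1, a tyrosine kinase gene, had 71.98 CPM in the left library of mouse 2 and 71.01 CPM in the right library of mouse 4, and 23.32 to 31.07 CPM in the other 6, beside 66.7 to 72.3 CPM in naive mice. The log2 fold changes of the summed mice, 1.16 (edgeR SE 0.31) for Luc7l and -0.81 (edgeR SE 0.23) for Abl1, average over these levels, and neither passed in edgeR.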
